A study of Mus musculus with 4 samples.

Results

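Mature olfactory sensory neurons of the Ventral cluster were examined in the main olfactory epithelium, the nasal tissue that holds the olfactory neurons, of 4 male C57BL/6 mice aged 8 weeks. The mice received no treatment, and the dissociated live nucleated cells of each mouse gave 1 library of the 10x Genomics 3′ assay, in which every captured transcript is counted by a unique molecular identifier (UMI). The members were the neurons that the deposited cell table places in Ventral, the ventral cluster with no subset gene in its name, when receptor genes are left out of the clustering. They numbered 4600 of 9539 clustered mature neurons and of 21809 cell barcodes. Mice 1 to 4 gave 1186, 1133, 750 and 1531 of them, which was 45.4%, 49.4%, 43.8% and 52.5% of the clustered mature neurons, with a mean of 47.8% ± 3.96 (SD, n = 4).

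Each mature olfactory neuron transcribes 1 odorant receptor gene out of a very large family, and neurons that share a receptor send their axons to common glomeruli of the olfactory bulb. Binding of an odorant activates the olfactory G protein and adenylyl cyclase 3, and the resulting cyclic AMP opens a cation channel. Receptors are used in zones of the epithelium that run from dorsal to ventral, and nuclear factor I proteins such as Nfix belong to the ventral side.

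The cluster carried the markers of its name. Nfix, a nuclear factor I transcription factor, was at 4.88, 5.88, 5.64 and 5.69 UMIs per 10000 UMIs in the Ventral neurons of mice 1 to 4, against 0.235 to 0.506 in the cluster named Dorsal. Ncam2, a cell adhesion molecule of ventral neurons, was at 1.39 ± 0.101 UMIs per 10000 in Ventral and at 0.0586 ± 0.0256 in Dorsal (SD, n = 4). The dorsal enzyme Nqo1 went the other way, with 0.474 ± 0.0779 in Ventral and 25.2 ± 4.84 in Dorsal. The other ventral clusters had Nfix at 4.73 to 5.25 and Ncam2 at 0.614 to 1.68, so these markers set the cluster apart from Dorsal and not from them. These are descriptions, since the clusters were made from the same genes. Markers of supporting, basal, microvillar and immune cells, glia and glands were each at or below 0.0324 UMIs per 10000 as a mean over the mice, Gap43 of immature neurons was at 0.145, and the haemoglobin gene Hbb-bs was at 0.347. The summed level of all 29 markers of other cell types was 8.88 to 9.82 UMIs per 10000, nearly all of it from Tubb3 and Stmn2, which mature neurons also transcribe. Between libraries 54 cell barcodes were shared, of which 1 recurred among Ventral neurons, and the median depth was 5564, 4279, 6628.5 and 4009 UMIs per Ventral neuron in mice 1 to 4.

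The Ventral neurons held 572 receptor identities, and 60 of them had 20 or more neurons and form the populations described below. These 60 populations held 1907 neurons, or 41.5% of the cluster. The largest were Olfr1348 with 78 neurons, Olfr1226 with 76 and Olfr239 with 70, and at the limit 7 populations had exactly 20 neurons and another 5 had 19. Their receptor genes lie on 13 chromosomes, with 18 on chromosome 2 and 9 on chromosome 14. For 33 populations every clustered neuron was in Ventral, and for 49 at least 90% were. The populations least contained in it were Olfr55, with 41.3% of its neurons in Ventral and 44 in the ventral cluster named for Calb2, Olfr1222 with 52.3% and 21 neurons in the one named for Dlg2, and Olfr1384 with 59.5%. Some populations that are extremes below were also cut. Olfr295 had 65.6% in Ventral and 11 neurons in the ventral cluster named for Cd55. Olfr794 had 74.1%, and Olfr166 had 79.5% and 8 neurons in the one named for Dlg2. For such populations the values describe only the neurons that the clustering left in Ventral.

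UMIs were summed over the neurons of each population in each mouse, without receptor genes, and a sum was used when it held at least 3 neurons. This gave 227 sums, 4 mice for 48 populations, 3 for 11 and 2 for 1, with 9683 to 133848 UMIs each. A level below is the UMIs of a gene per 10000 non-receptor UMIs of a sum, averaged over mice. Populations given as highest and lowest for a gene were picked by that level, so a gap between their values is a description and no test. Of 3709 genes with a mean of at least 2 UMIs per sum, 749 (20.2%) differed among the 60 populations after adjustment, with the mouse as a block. Without adjustment, 1110 genes had a p under 0.05. Without mouse 4, which gave the most neurons, 488 genes were called. With every neuron thinned to 5000 UMIs and shallower ones left out, 276 of 2535 tested genes were. This thinning dropped 154, 312, 63 and 473 neurons of mice 1 to 4, out of 486, 492, 318 and 611 in the populations. The parts of depth and of fewer neurons in the lower count were not told apart.

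Each population was then compared with the mean of the other 59 on the log scale. Of 222540 pairs of a population and a gene, 2725 (1.22%) were called, 2055 (0.923%) as higher and 670 (0.301%) as lower. This contrast has a limit, because 203 genes had no UMI in at least 1 population, and their mean of logs is drawn down by it. These genes gave 624 of the calls as higher and 30 as lower, and the remaining genes gave 1431 and 640. For genes with such a population, levels are therefore given here in place of fitted fold changes. The contrast against all other populations pooled, in which the spread among those populations counts as error, called 222 pairs. It did not call Cidea, Mslnl, Tuba4a, Tmsb4x, Stoml3 or Ptn in the population with their highest level. Of these, Mslnl, Tmsb4x and Stoml3 had UMIs in every population. The limit above does not apply to Tmsb4x and Stoml3. Mslnl had only 1 UMI in Olfr731 and 1 in Olfr1260, which also draws its mean of logs down. Stoml3 in Olfr309 was at 0.69 ± 0.09 on the log2 scale in the main contrast and at 0.62 ± 0.21 in the pooled one (SE, adjusted p = 0.335). Tmsb4x in Olfr794 was at 0.90 ± 0.10 and 0.80 ± 0.26 (adjusted p = 0.27), and Mslnl in Olfr309 at 1.93 ± 0.17 and 1.35 ± 0.47 (adjusted p = 0.347). Without mouse 1 or mouse 4 the main contrast called 1791 and 1682 pairs.

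The number of called genes was uneven. Olfr731, with 44 neurons, had the most, 105 genes higher and 51 lower than the mean of the others. Olfr166 had 82 and 13, Olfr239 had 70 and 44, and both Olfr536 and Olfr309 had 66 genes higher, with 26 and 30 lower. At the other end stood Olfr820 with 13 higher and 0 lower although it had 46 neurons, and Olfr1090 with 7 and 7. Without the genes that had a population at 0, Olfr820 had 7 higher and Olfr731 had 86 higher and 50 lower. Across the 60 populations the number of called genes and the number of neurons had a Pearson r of 0.39.

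**Figure D1:**
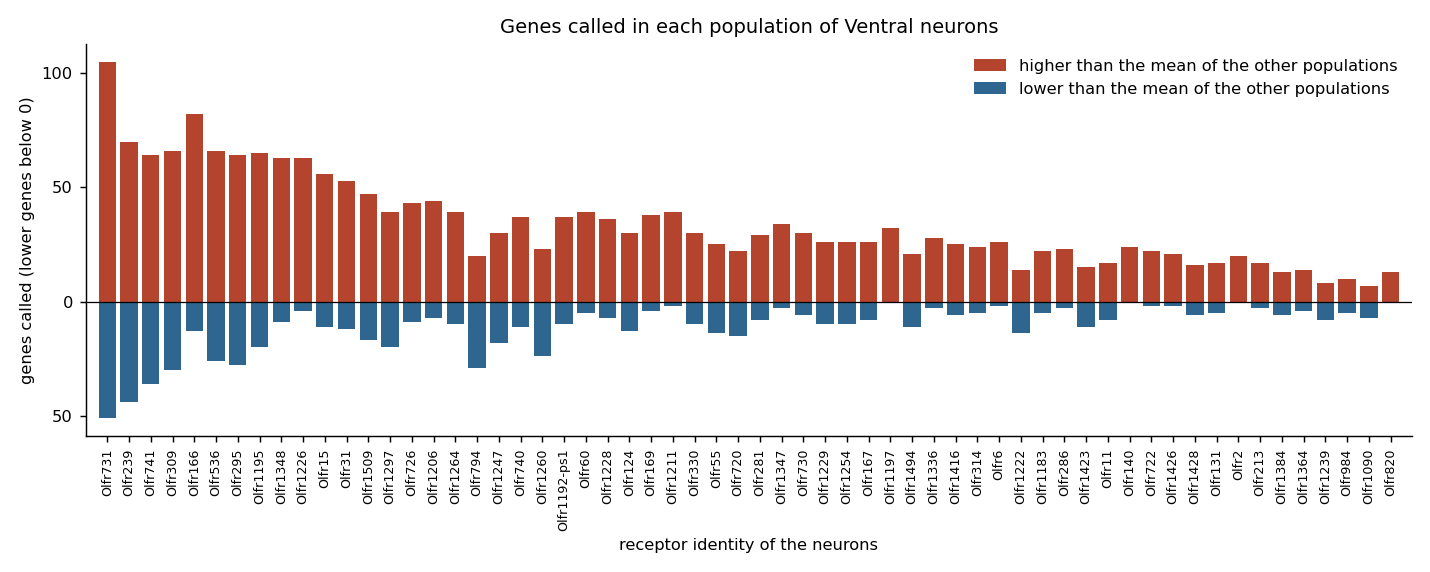
Number of genes called higher (above 0) and lower (below 0) in each of the 60 populations against the mean of the others; each bar is 1 receptor identity. Olfr731 has 105 genes higher and 51 lower, and Olfr820 has 13 higher and 0 lower.

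Pcp4l1 and S100a5 had the largest F statistics of all genes tested. S100a5 (chromosome 3, 90608523 to 90611780, plus strand, GRCm38), which encodes a calcium-binding protein of mature olfactory neurons, was the more abundant. It was at 829, 684 and 1094 UMIs per 10000 in the Olfr166 neurons of mice 1, 2 and 4, and at 27.6, 28.9, 26.7 and 47.4 in the Olfr794 neurons of mice 1 to 4. These were the highest and the lowest of the 60 populations, with means of 869 ± 208 (SD, n = 3) and 32.6 ± 9.89 (SD, n = 4), a factor of 26.6. The median population was at 180. Against the mean of the others Olfr166 was higher by 2.55 ± 0.12 on the log2 scale (SE, adjusted p = 3.4e-56), and Olfr794 was lower, at −2.60 ± 0.22 (adjusted p = 2.47e-24). After Olfr166 came Olfr1229 at 510 ± 124 and Olfr167 at 485, and above Olfr794 came Olfr1384 at 35.9. Of the 60 populations 23 were called higher and 16 lower. The SD over populations was 150, against a median SD over mice within a population of 28.6. The order of the populations was shared between mice, with Spearman's rho of 0.87 to 0.934 between pairs of mice. S100a5 also differed between the ventral clusters. It was at 208 per 10000 of all UMIs in Ventral, 598 in the cluster named for Dlg2 and 11.7 in the one named for Calb2. The clusters named for Cd36 and Cd55 were at 293 and 113.

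Pcp4l1 encodes a small protein related to the calmodulin regulator Pcp4. It was at 65.0, 61.4 and 76.7 UMIs per 10000 in the Olfr166 neurons of mice 1, 2 and 4, with a mean of 67.7 ± 7.96. In the Olfr295 neurons of all 4 mice it had 0 UMIs, which in a total of 104783 UMIs allows a level of up to 0.286 (3 counts, counting error only). Olfr741 at 57.1 ± 8.61 and Olfr1509 at 48.4 followed Olfr166, the median was 12.8, and Olfr1494 was at 0.344. Its F of 67.5 was the largest of all 3709 genes, and rho between mice was 0.894 to 0.947. Pcp4l1 too differed between the ventral clusters, at 15.8 in Ventral, 54.3 in the one named for Dlg2 and 0.449 in the one named for Calb2. The ones named for Cd36 and Cd55 were at 18.2 and 3.1.

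The genes most like S100a5 in their pattern were ranked among 717 other called genes, ribosomal and mitochondrially encoded genes left out, by Pearson's r across the 60 populations. The populations of a mouse share 1 library, so r is a description. Pcp4l1 came first with an r of 0.90 and 0.858 to 0.902 in single mice. It was followed by Lrrc3b (0.82), which encodes a membrane protein with leucine-rich repeats, Kirrel2 (0.76), an adhesion molecule of olfactory axons, Kcnmb3 (0.74), a subunit of calcium-activated potassium channels, and Epha5 (0.74), an ephrin receptor. In single mice r was weaker for Lrrc3b (0.622 to 0.789), Kirrel2 (0.555 to 0.726), Kcnmb3 (0.578 to 0.660) and Epha5 (0.596 to 0.699). The 5 genes with the most opposite pattern were Efna3 (−0.84), Gm11992 (−0.73), Ptp4a3 (−0.71), Efna5 (−0.71) and Sh3glb2 (−0.71). Every single mouse gave a weaker value for each of the 5, from −0.800 to −0.590 for Efna3 but −0.574 to −0.146 for Sh3glb2, and the smallest in size were −0.371 for Gm11992, −0.344 for Ptp4a3 and −0.372 for Efna5. Efna3 and Efna5 encode ephrin-A ligands of Epha5. Of these 717 genes, 49 had an r over 0.5 and 57 an r under −0.5. S100a5 had an r of 0.02 with the median UMIs per neuron of a population, 0.36 with the median mitochondrial share and −0.43 with the summed markers of other cell types, which were lowest in Olfr166 at 5.30 and highest in Olfr794 at 14.8 UMIs per 10000. Nearly all of that sum comes from Tubb3 and Stmn2, which mature neurons also transcribe, and Tubb3 alone was at 11.1 in Olfr794. The part of depth, mitochondrial share and this sum in the S100a5 pattern was not tested.

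**Figure D2:**
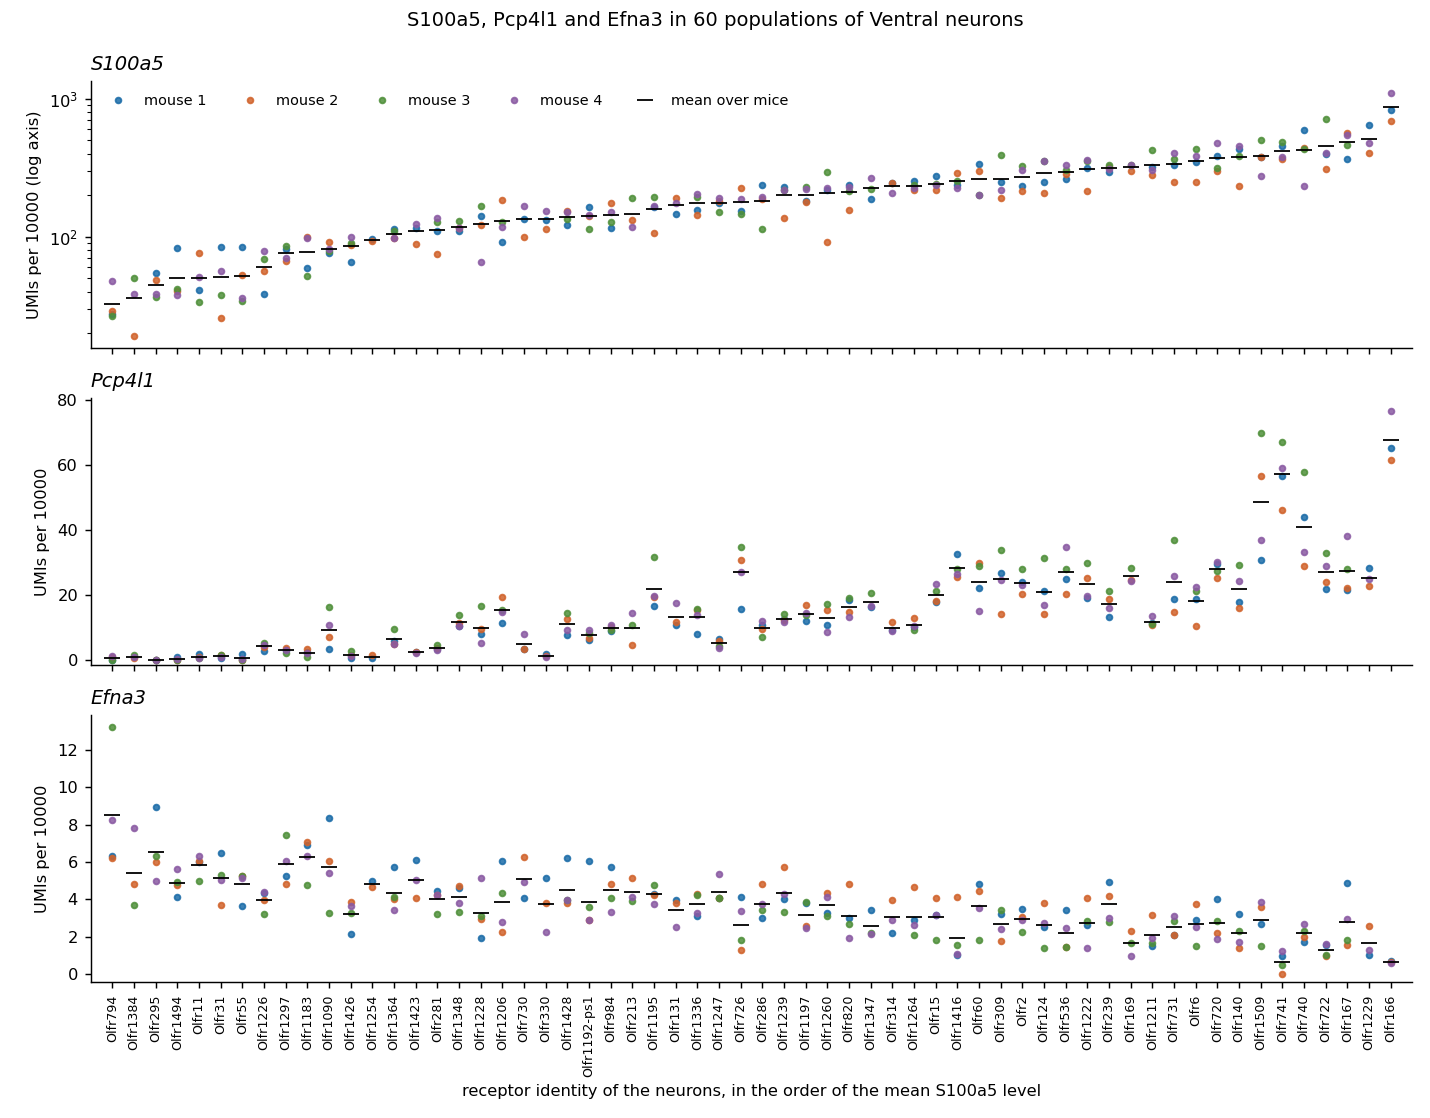
Levels of S100a5 (log axis), Pcp4l1 and Efna3 in UMIs per 10000 in the 60 populations, ordered by the mean S100a5 level; each point is 1 mouse and the bar is the mean over mice. Olfr794 is lowest and Olfr166 highest for S100a5, at 32.6 and 869, while Efna3 is at 8.49 and 0.662 in the same populations.

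Of 36 genes of axon guidance and sorting 15 were abundant enough to be tested, and all 15 were called, against 20.2% of all genes. This list and those below were chosen with earlier results of these data known, so their shares of called genes are descriptions and no test. Kirrel2 and Epha5 were among the strongest. Kirrel2 was at 18.9, 18.2 and 19.3 UMIs per 10000 in Olfr166 and at 0.612, 1.89, 2.31 and 1.86 in Olfr55, its highest and lowest populations. Its mean was 18.8 ± 0.586 (SD, n = 3) against 1.67 ± 0.734 (SD, n = 4), with a median population of 8.43. Against the mean of the others Olfr166 was higher by 1.64 ± 0.15 on the log2 scale (adjusted p = 9.82e-22) and Olfr55 was at −2.02 ± 0.25 (adjusted p = 5.72e-12).

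Of the ephrins and their receptors, Epha5, Epha7, Efna3 and Efna5 were tested. Epha5 was at 17.9, 15.7 and 12.0 UMIs per 10000 in the Olfr169 neurons of mice 2 to 4 and at 2.99, 1.03, 2.20 and 0.551 in Olfr794, its highest and lowest populations. Its ligand Efna3 was at 6.31, 6.20, 13.2 and 8.27 in Olfr794 and at 0.721, 0.661 and 0.604 in Olfr166. Olfr794 was higher in Efna3 by 1.36 ± 0.19 on the log2 scale (adjusted p = 3.52e-09), and Olfr166 was at −2.22 ± 0.36 (adjusted p = 7.18e-07). Efna5 was at 3.18 ± 2.63 in Olfr31, where mouse 1 had 0.310 and mouse 2 had 6.63, so its highest population rests on uneven mice. Epha7 was called among populations as well, with 1 population higher.

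Among the semaphorin and Slit pathways, Sema7a, a membrane-anchored semaphorin, was at 5.96 ± 1.68 in Olfr167 and 0.291 ± 0.389 in Olfr1494 (SD, n = 4). Nrp2, the semaphorin co-receptor, was at 3.90 ± 0.920 in Olfr1192-ps1 and had 0 UMIs in Olfr794 and 1 other population. Robo2, a Slit receptor, was at 2.58 ± 0.485 in Olfr1426, at a median of 0.454, and at 0 in 5 populations. Plxna1 ran from 2.90 ± 1.85 in Olfr1197 to 0.0899 in Olfr536. Ncam1, an adhesion molecule, was among the 15 with a range of only 10.4 to 19.2, and no single population was called for it.

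**Figure D3:**
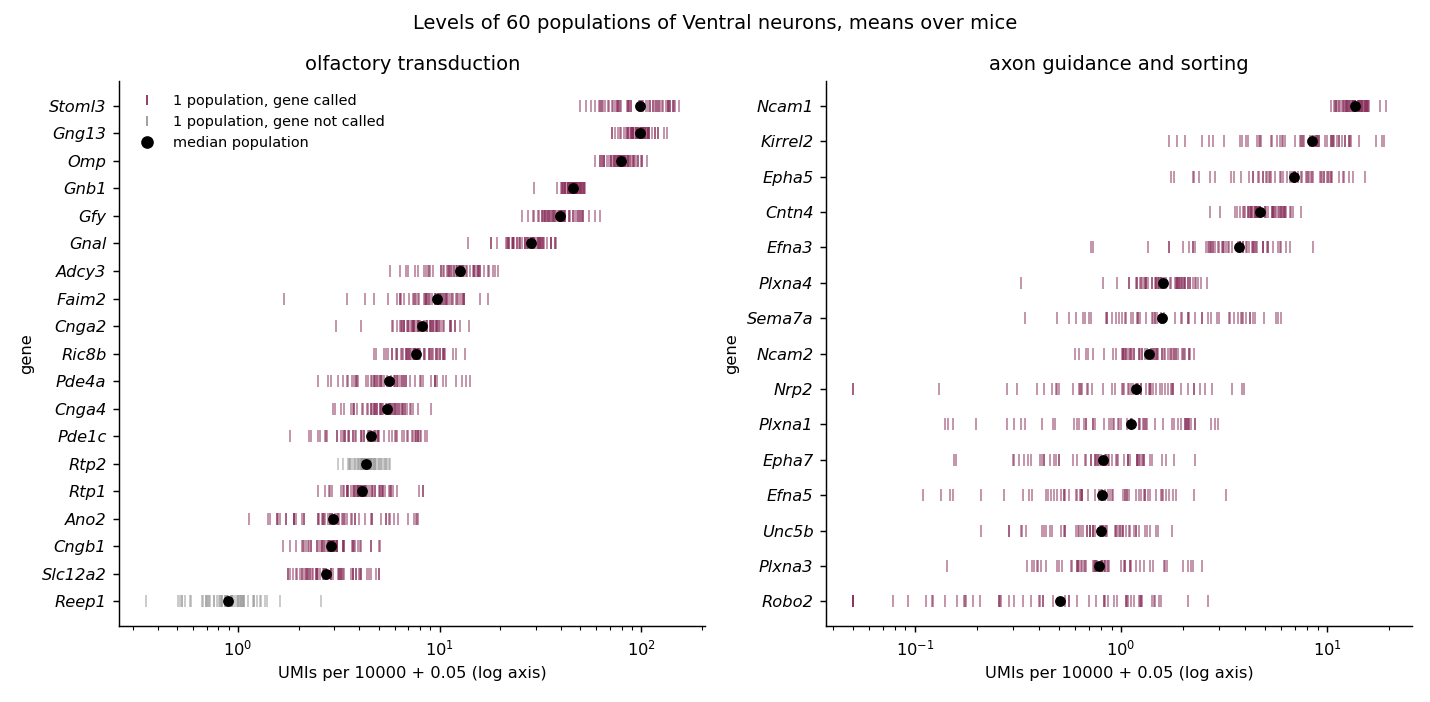
Levels (UMIs per 10000, with 0.05 added, log axes) of the tested genes of olfactory transduction and of axon guidance and sorting; each tick is the mean of 1 population over mice and the black point is the median population. Stoml3 spans 49.95 to 154, and Rtp2, drawn in grey, did not pass the test.

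Of 22 olfactory transduction genes 19 were tested, and 17 differed among populations, against 20.2% of all genes tested. The olfactory G protein subunit Gnal was at 13.5, 16.2, 11.7 and 13.5 UMIs per 10000 in Olfr731, its lowest population, and at 37.8 ± 5.4 in Olfr31, its highest. Cnga2, the main subunit of the cyclic nucleotide-gated channel, was at 3.01 ± 0.604 in Olfr731 and 14 ± 4.01 in Olfr15 (SD, n = 4). Adenylyl cyclase Adcy3 ran from 5.66 ± 1.84 in Olfr1222 to 19.4 ± 2.92 in Olfr286. The calcium-activated chloride channel gene Ano2 had a wider range, from 1.08 ± 0.722 in Olfr1423 to 7.79 ± 1.70 in Olfr60. The phosphodiesterases Pde4a and Pde1c were both highest in Olfr15, at 14.2 ± 4.81 and 8.57 ± 2.72.

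Stoml3, a stomatin-like membrane protein of olfactory cilia, had the largest F of the list, 19.5. It was at 162, 163, 121 and 170 UMIs per 10000 in Olfr309 and at 53.9, 48.8, 44.8 and 52.2 in Olfr731, the extremes of the 60 populations. Olfr731 was also lowest for Faim2, a membrane protein that inhibits Fas-induced cell death, at 1.64 ± 0.805 against 17.3 ± 2.08 in Olfr309. Omp, the olfactory marker protein, varied less, from 59.1 ± 9.32 in Olfr731 to 107 ± 9.93 in Olfr286. The chaperone gene Rtp2, which helps receptors reach the membrane, was not called (F of 0.824, adjusted p = 0.884), nor was Reep1 (adjusted p = 0.116), whereas Rtp1 was. Olfr731 thus held the lowest level of Gnal, Gnb1, Cnga2, Stoml3, Faim2, Gfy and Omp. Low Omp and Cnga2 were not particular to it. The ventral cluster named for Cd55 had Omp at 58.1 and Cnga2 at 4.35 per 10000 of all UMIs, against 78.5 and 8.22 in Ventral. The clusters named for Cd36, Dlg2 and Calb2 had Omp at 65.9, 69.6 and 74.6 and Cnga2 at 3.97, 5.78 and 9.19.

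Some genes were far higher in 1 population than in the median one. Cd55, which encodes a complement inhibitor and names a neighbouring cluster, was at 9.42, 14.3, 15.8 and 12.3 UMIs per 10000 in Olfr731. Its mean of 13 ± 2.76 there compared with a median population of 0.0611 and 0 UMIs in 27 populations. Olfr1260 at 4.81 ± 2.99 and Olfr295 at 4.19 followed. Calb2, the calcium-binding protein calretinin, was at 13.8, 9.64, 9.93 and 7.97 in Olfr1226, above the next population, Olfr1384, at 3.69 ± 2.57. Its median was 0.133, and 14 populations had no UMI. Only 3 of the 79 clustered Olfr1226 neurons lay in the cluster named for Calb2, so these values are from neurons that the clustering left in Ventral. Dlg2, a synaptic scaffold protein and the third of these cluster names, was at 12.6, 3.74, 5.24 and 5.77 in Olfr740 and at a median of 1.05.

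Pcdh10, a protocadherin, was at 16, 7.94 and 13 UMIs per 10000 in the Olfr169 neurons of mice 2 to 4. Its mean of 12.3 ± 4.07 there stood against 6.22 ± 3.67 in Olfr286, 5.45 in Olfr330 and a median of 0.528. The other tested protocadherin, Pcdh17, was called too and was highest in Olfr295, at 4.05 ± 2.31. Tuba4a, an alpha-tubulin, was at 5.23, 9.45, 5.69 and 8.40 in Olfr309 and had no UMI in 19 populations. Gm31557 was at 7.49 ± 1.67 in Olfr731 and 6.49 ± 3.88 in Olfr124, with 19 populations at 0. Tppp3, a tubulin polymerisation-promoting protein, and Caly, a vesicle protein, were both highest in Olfr731, at 2.91 ± 1.29 and 3.47 ± 1.40 (SD, n = 4).

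Of 24 secreted peptides and growth factors 5 were tested, and all 5 were called, against 20.2% of all genes. Ptn, the growth factor pleiotrophin, was at 7.81, 7.41 and 7.5 UMIs per 10000 in Olfr1384 (mice 2 to 4), at 5.79 ± 0.913 in Olfr1348, and had 0 UMIs of 234039 in Olfr731. Cartpt, which encodes the CART neuropeptide precursor, was at 23.2, 27.9, 17.3 and 26.5 in Olfr794, 16.2 ± 2.35 in Olfr295 and 12.9 in Olfr131, with a median of 1.47. It had no UMI in 3 populations, one of them Olfr741. Scg3, a secretogranin, was highest in Olfr731 at 4.01 ± 1.30, and Chga ran only from 22.8 to 39.5 and had no population called by itself.

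Promoters of the 19 genes with the largest F or the largest ratio of highest to median population were searched for 2 motifs, the cyclic AMP response element TGACGTCA and the Ebf site, which reads TCCC and GGGA with any 2 bases between them, on both strands. RefSeq promoters (build GRCm38.p6, 250 bases before to 50 after the start) were given for 16 of the 19 genes. These 16 genes had 19 promoters in the table. The first motif was found in 1 of the 19 promoters, against 1.79% of 32851 promoters, and the second in 0 of 19, against 0.904%. The match, shown because it is the only one among these genes, lies in the promoter of Cartpt on the minus strand, and begins 112 bases before the RefSeq start. The GENCODE gene starts further upstream, at 99901091, so the match lies inside that gene model. The 24 bases printed, at chr13:99900780-99900803, hold the motif in capitals with its flanks.
Cartpt: gcgggcatTGACGTCAaacggcag
A match is a sequence description only.

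**Figure D4:**
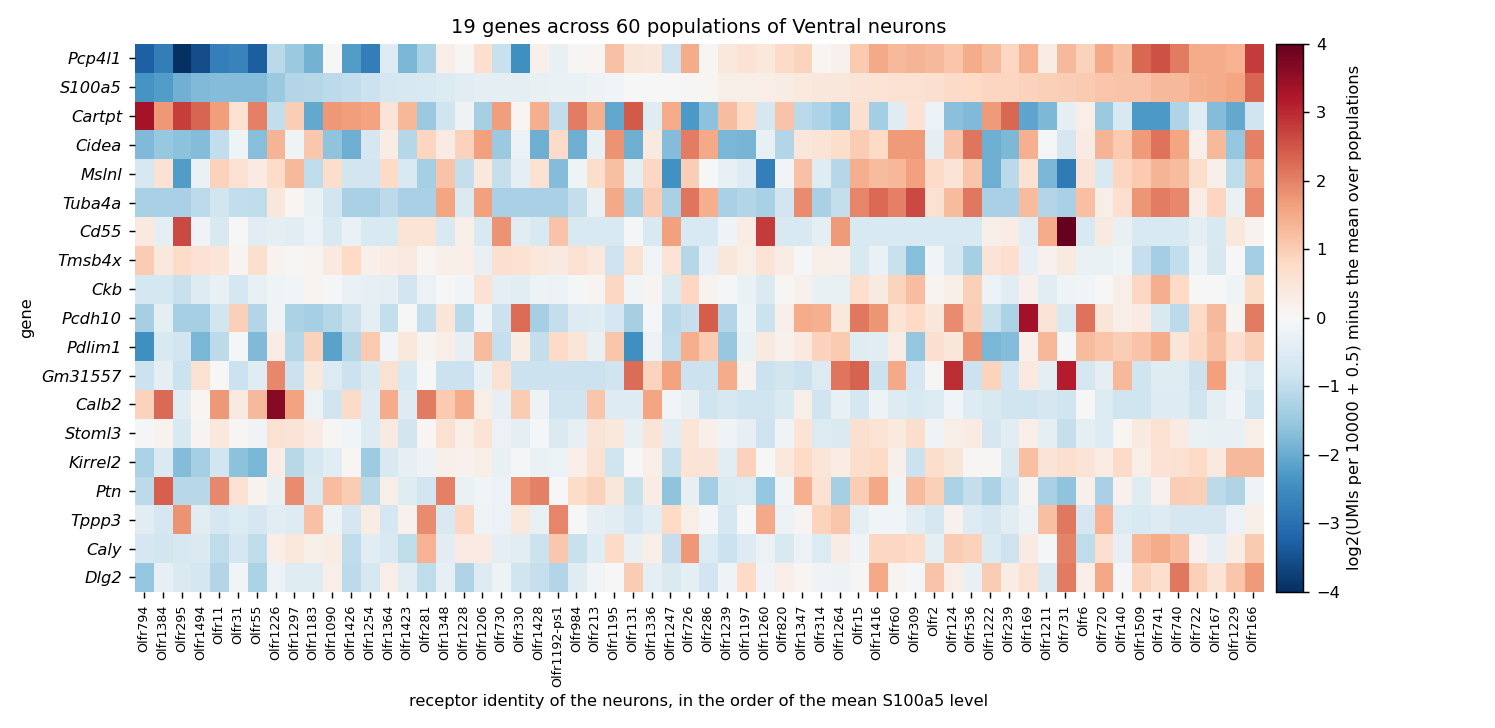
The 19 genes with the largest F or the largest ratio of highest to median population, in the 60 populations ordered by S100a5; colour is log2(UMIs per 10000 + 0.5) minus the mean over populations, red above and blue below it. Cd55 is over 1 UMI per 10000 in 8 populations and Pcdh10 in 22, while Pcp4l1 changes along the S100a5 order.

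Another 5 genes were among the 16 with the largest F. Cidea, which encodes a lipid droplet protein, was at 9.79, 7.49, 7.85 and 8.51 UMIs per 10000 in Olfr741, 8.05 ± 1.15 in Olfr536 and at 0 in 5 populations. Mslnl, a mesothelin-like gene, ran from 11.4 ± 0.415 in Olfr309 to 1 UMI in all Olfr731 sums together. Olfr731 lay at −5.45 ± 0.51 on the log2 scale against the mean of the others (adjusted p = 1.43e-19). Tmsb4x, an actin-binding thymosin, was at 198 ± 13.1 in Olfr794 and 29.9 ± 5.82 in Olfr309. Ckb, the brain creatine kinase, was at 108 ± 14.7 in Olfr741 and 20.6 ± 4.25 in Olfr295. Pdlim1, a cytoskeletal adaptor, was at 8.98 ± 1.66 in Olfr536 and had no UMI in Olfr794 or 1 other population (SD, n = 4).

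Zonal genes varied unequally. Nfix itself was not called among populations (F of 1.35, adjusted p = 0.177), with levels from 3.96 ± 2.03 in Olfr794 to 8.65 ± 2.44 in Olfr15. The related Nfia was called, from 0.0391 in Olfr1297 to 2.28 ± 0.688 in Olfr1183, and so was Nfib, from 0.299 ± 0.227 in Olfr794 to 3.65 ± 0.856 in Olfr1228. Ncam2 passed with an adjusted p of 0.0241 and 1 population higher. Of the 18 tested transcription factors 9 were called, against 20.2% of all genes. Among them Ebf1, an activator of receptor genes and other olfactory genes, ran from 7.07 ± 1.23 in Olfr741 to 20.1 ± 5.52 in Olfr295. Tshz2 ran from 11.1 ± 2.33 to 24.2 ± 5.68. Ebf2, Ebf3, Ebf4 and Klf7 were not called.

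Of the 13 tested genes of endoplasmic reticulum stress 6 were called, against 20.2% of all genes. Dnajb9, a chaperone of the endoplasmic reticulum, was at 6.58, 6.98, 4.44 and 9.88 UMIs per 10000 in Olfr1195 against a median of 1.90 (adjusted p = 7.01e-16 against the mean of the others). Herpud1, a degradation factor, was at 7.88 ± 6.78 in Olfr295, where mice 1 and 2 had 2.24 and 1.80 and mice 3 and 4 had 14.2 and 13.3. Hspa5, the chaperone BiP, ran from 2.20 ± 0.498 to 6.58 ± 3.08. Atf4 (adjusted p = 0.506), Calr and Pdia3 were not called.

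Of 17 immediate early and activity genes 4 were tested, and all 4 were called, against 20.2% of all genes. Their median F was 2.32 against 1.15 over all genes, and Jund had the largest, 3.75. Fos had an adjusted p of 0.0401 and no population called by itself. Of the 9 tested calcium-binding genes 7 were called, S100a5 among them, against 20.2% of all genes. Calm2, which encodes calmodulin, ran from 29.4 ± 3.03 in Olfr726 to 66.4 ± 12.8 in Olfr794 (SD, n = 4), and Calm3 was not called. Of the markers of other cells only Tubb3 and Stmn2 were abundant enough to be tested, and both were called. Tubb3, a neuronal tubulin, was at 11.1 ± 2.05 in Olfr794 and 1.38 ± 0.887 in Olfr741. Ribosomal protein genes were called in 22 of 77 cases and mitochondrially encoded genes in 9 of 11, against 20.2% of all genes. The summed mitochondrial level was 97.8 in Olfr1428 and 232 in Olfr1347.

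For each of the 10 largest populations the called genes with the largest fitted increase and decrease were taken. Every gene taken for its increase had no UMI in some population. Its mean of logs was thus drawn down, so this choice favours such genes and need not give the gene with the highest relative level. In Olfr1348 Ptn was at 5.79 ± 0.913 UMIs per 10000, and the largest fitted increase was that of Tuba4a at 3.15 ± 0.695, the 13th highest level of that gene. In Olfr1226 the largest increase was that of Calb2 (above), and the largest decrease that of S100a5, at 60.7 ± 17.5 against a mean of 219 over the other populations (−1.49 ± 0.17 on the log2 scale, adjusted p = 2.87e-13). Olfr239 had Cartpt at 11.4 ± 1.54 against 3.61 and 2 UMIs of Nfia. Olfr1297 had Calb2 at 2.13 ± 1.22 and 1 UMI of Nfia. Olfr1264 had Gm31557 at 3.49 ± 1.09 and Cmip, a signalling adaptor, at 1.32 ± 0.284 against 6.13.

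In Olfr1211 and Olfr1247 the largest fitted increase was that of Cd55 and the largest decrease that of Mslnl. Cd55 was at 1.62 ± 0.764 and 1.89 ± 0.921 UMIs per 10000 in them, against means of 0.603 and 0.599 over the other populations. These were only the 7th and 6th highest levels of Cd55. Mslnl was at 0.569 ± 0.213 and 0.212 ± 0.281, against means of 4.48 and 4.49 over the other populations. Olfr536 had Tuba4a at 4.82 ± 0.648, and 1 UMI of Mfge8, a secreted protein that marks cells for uptake. Olfr820 had Rasl11a, a small GTPase, at 2.00 ± 0.521 against 0.889, and no gene called lower. Olfr731 had the highest Cd55 and the lowest Mslnl of the 60 populations.

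Populations with like receptors were compared last. Receptor proteins were translated from the GENCODE M21 transcripts for all 60 populations and had 302 to 330 residues. Of 1770 pairs, 52 shared at least 60% of their residues, and the median identity was 40.9%. Of the 52 pairs, 47 had both genes on 1 chromosome and 44 within 1000 kb. Most of the 52 lay on chromosome 2, where populations such as Olfr1211, Olfr1229 and Olfr1239 recur in many pairs, so the pairs are not independent. The distance between populations was the root mean square of their differences in log2(UMIs per 10000 + 0.5) over the 3709 genes, within a mouse. It was lower for like than for unlike pairs in 4 of 4 mice, at 0.708 against 0.772, 0.849 against 0.861, 0.729 against 0.800 and 0.720 against 0.758. The mean difference was 0.0462 ± 0.0271 (SD, n = 4; exact two-sided sign-flip permutation test, p = 0.125, the smallest that 4 mice allow). Every mouse drew on this same set of pairs, so the agreement of the mice describes that set and not receptors in general.

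The number of neurons moved with this result, since sums of like pairs held 9.17 on average in mouse 1 against 8.40 for unlike pairs. Like pairs held more neurons in the other mice too, and the UMIs of like and unlike pairs were not compared. With every sum thinned to 9683 UMIs, an alternative added after the data were seen, counting noise raised all distances to about 1.37. The difference was then 0.00547 ± 0.00569, again lower for like pairs in 4 of 4 mice (exact two-sided sign-flip permutation test, p = 0.125). It was 0.00316, 0.00381, 0.0138 and 0.0011 in mice 1 to 4, from 1 random draw, so most of these signs rest on very small differences. Receptors with 70% or more identity (23 pairs) gave a difference of 0.0722 ± 0.00898 without thinning. Sums of these pairs were larger as well, with 12.6 neurons against 10.3 in mouse 4, and no thinned value was computed at this limit. Over the like pairs the median difference in S100a5 was 0.80 on the log2 scale, and 1.04 over the unlike pairs. Among unlike pairs, 87 had their genes within 1000 kb. Over the called genes their mean distance was 0.816, against 0.853 for the other unlike pairs and 0.781 for like pairs. The part of genomic nearness in the difference was not tested.

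**Figure D5:**
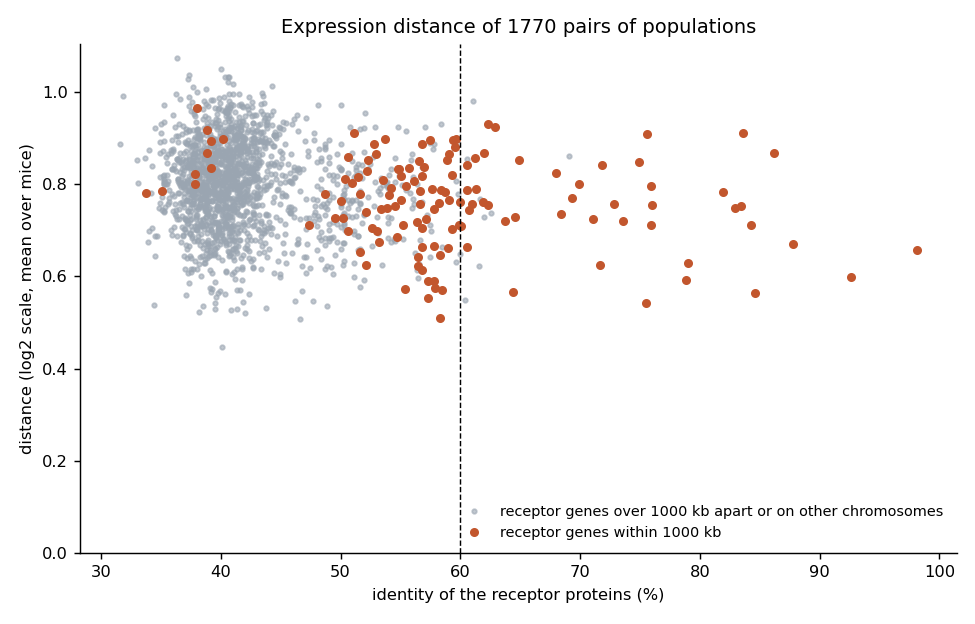
Distance between 2 populations (log2 scale, mean over mice) against the identity of their receptor proteins for 1770 pairs; orange points are pairs of receptor genes within 1000 kb and the dashed line marks 60%. Pairs at high and at low identity overlap widely in distance.

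Olfr239 and Olfr55 share 98.1% of their residues, and their genes start 22.9 kb apart on chromosome 17. S100a5 was at 294, 319, 331 and 311 UMIs per 10000 in Olfr239 and at 83.8, 52.4, 34.0 and 36.1 in Olfr55, with no overlap. Pcp4l1 was at 17.3 ± 3.51 in Olfr239 and at 1.83, 0, 0 and 0.233 in Olfr55, where the highest value comes from the 3 neurons of mouse 1. Calb2 had 0 UMIs in Olfr239 and 1.66 ± 0.391 in Olfr55 (SD, n = 4). Cartpt was at 11.4 ± 1.54 and 9.39 ± 1.83, and the ranges overlapped. The distance of the pair over all genes was 0.657, below the mean of unlike pairs, 0.798. Reads of such a pair can be assigned to the wrong receptor, and most Olfr55 neurons lay outside the cluster, so these values cover part of that population.

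The genes of other pairs were unequally alike. The pairs whose genes are described are the 4 of highest identity and Olfr731 with its neighbour Olfr730, the last chosen after its values were seen. Olfr741 and Olfr740, with 86.2% identity, had S100a5 at 420 ± 56.4 and 423 ± 148, and Tuba4a at 4.55 ± 2.03 and 4.16 ± 1.33. Efna3 was at 0.684 ± 0.548 and 2.19 ± 0.399 without overlap, and their distance of 0.868 was above the mean of unlike pairs. So was that of Olfr1228 and Olfr1222, at 0.910 with 83.6% identity, whereas Olfr1348 and Olfr1336, with 84.6%, were at 0.563. Among pairs seen in at least 3 mice, Olfr1348 and Olfr1226 were the closest over the called genes, at 0.497. Their distance over all tested genes was 0.447, and they shared only 40.1% of their residues. Pairs outside the choice above were added for their distance. Olfr1348 and Olfr1226 also held the most UMIs, 416595 and 427574, against 97390 in Olfr740 and 98462 in Olfr1222. The part of depth in these distances was not tested. Olfr1348 and Olfr1347, with 92.6% identity and a distance of 0.599, had S100a5 at 118 ± 7.89 (n = 4) and 226 ± 40.6 (n = 3), without overlap, and both had 0 UMIs of Cd55 and Gm31557. Olfr1226 and Olfr1228, with 87.7% and a distance of 0.671, differed in Calb2, at 10.3 ± 2.45 and 1.92 ± 1.14, and in Gm31557, at 2.97 ± 1.08 and 0 (SD, n = 4). Olfr731 and Olfr730, with 64.4% and a distance of 0.565, had Cd55 at 13 ± 2.76 and 2.12 ± 1.67, and Gm31557 at 7.49 ± 1.67 and 0.902 ± 0.515. Both had no UMI of Tuba4a.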

How the data were processed

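Single-cell libraries of 4 mice were used. Per the methods of the study, the authors mapped reads with Cell Ranger 6.0.1 to GRCm38, with receptor genes re-annotated at their ends, and deposited UMI counts per gene and barcode. Cluster and receptor identity of each neuron were taken from the deposited cell table, made by the authors after filtering. No doublet caller was run here.

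UMIs were summed per receptor identity and mouse over Ventral neurons, without 1430 receptor genes. Identities had at least 20 neurons, sums at least 3, and genes a mean of at least 2 UMIs per sum. Sums held 9683 to 133848 UMIs (median 35095), which limits low genes. edgeR 4.0.16 (quasi-likelihood, TMM factors) tested population with mouse as a block, since sums of 1 mouse share an animal and library. P-values were adjusted by Benjamini-Hochberg, threshold 0.05. DESeq2 1.42.0 was an alternative. The test was checked on simulated data. SE of a log2 change was its size over the root of F. Proteins were translated from GENCODE M21 and aligned with Biopython 1.88.

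Named genes were the 16 with the largest F, the 10 with the largest ratio of highest to median population (0.1 added to both), those of the gene lists, the 5 with the highest and the 5 with the lowest r with S100a5, and the genes with the largest change in the 10 largest populations. Ribosomal and mitochondrial genes were not named. The members and lists were chosen with earlier results of these data known.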

Additional observations from a re-analysis of the deposited data

Results flagged for a closer look

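Of 24 sets of 4 mice examined, 4 had a mouse far from the other 3, and chance gives about 1 in 20. S100a5 in Olfr794 was at 47.4 UMIs per 10000 in mouse 4, against 26.7 to 28.9 in the others. Ckb in Olfr295 was at 26.9 in mouse 1, against 17.7 to 19.3. Mslnl in Olfr731 was at 0.152 in mouse 1 and Dlg2 in Olfr794 at 0.332 in mouse 1, each from 1 UMI, against 0 in the others. Such a set is always flagged, so the chance rate above does not hold for it.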

How the results depend on the processing

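The 749 genes and 2725 pairs stayed within 1.5 times with RLE factors, DESeq2, filterByExpr, sums of at least 5 neurons, all clusters, and without the 5% of neurons with the most UMIs. With no filter beyond 10 UMIs, 1172 genes and 5339 pairs were called, of 12738 genes. With neurons thinned to 5000 UMIs, 276 genes and 1059 pairs were called, and fewer neurons and genes entered. Leaving out a mouse gave 488 to 596 genes and 1682 to 2178 pairs, lowest without mouse 4. With no replicate block, 655 genes and 2343 pairs were called. Each mouse number is 1 animal, and deviations of sums from their population means correlated at 0.0219 within and −0.00728 between mice.

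Each population against all others pooled, chosen after seeing the data, gave 222 pairs and 13 of 19 named genes. Under the 13 planned settings all 244 values of named genes that could be tested kept their call and direction. The Ventral share was 43.3% of all mature neurons, and 46.2% to 49.1% with a mouse left out. The difference in distance between unlike and like receptors was 0.0743 over called genes, 0.00547 in equally thinned sums (added after seeing the data), and 0.0379 to 0.0577 with a mouse left out. Of the 19 named genes, 18 or 19 could be tested with a mouse left out, and all of those tested were called. Low UMI totals per sum limit rarely counted genes.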
